A study of Homo sapiens with 6 samples.

Results

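UBB and RPS27A are 2 of the genes that encode ubiquitin, and they were taken from the count table by gene symbol, which gave 2 of its 34811 genes. Both genes were selected on the measured difference between the conditions of this experiment, so their values are given below as a description, with no test. Gene expression was measured by RNA-seq in OVCAR-3 cells, a line of high-grade serous ovarian carcinoma, carrying pRS HuSH-29 shRNA plasmids. OV3/SCR cells carried a scrambled shRNA and kept wild-type COX-1 (3 libraries), and OV3/COX1KD cells carried an shRNA against COX-1 (3 libraries). Cells of both conditions were stable clones selected with puromycin and were grown in RPMI-1640 with FBS. Each condition was 1 clone harvested at independent passages, so the knockdown and the choice of clone cannot be told apart, and every test describes the spread between passages of a clone.

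Ubiquitin is a small protein that is joined to other proteins and marks them for the proteasome or changes their location and activity. UBB is a polyubiquitin gene, in which ubiquitin units follow each other head to tail and are cut apart after translation, and it is known as a stress-inducible gene. RPS27A encodes a ubiquitin unit fused to a ribosomal protein, which joins the small ribosomal subunit once the fusion is cleaved.

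UBB (ENSG00000170315) lies at chr17:16284112-16286059 on the plus strand of GRCh37, and its canonical transcript has 933 bases in 2 exons. RPS27A (ENSG00000143947) lies at chr2:55459039-55462989 on the plus strand, and its canonical transcript has 785 bases in 6 exons. The coding sequence of UBB held 3 ubiquitin units of 76 residues each and 1 further residue. That of RPS27A held 1 unit followed by 80 residues of the ribosomal protein. All 3 units of UBB and the unit of RPS27A encode the same 76 residues. The first 90 coding bases of the units are shown because UBB and RPS27A give the same 76 residues from different bases. Only reads that cover such differences can be assigned to 1 gene. Capitals mark the bases that differ from unit 1 of UBB. The 90 bases shown for the pseudogene UBBP4 are the same as those of UBB unit 2, so this stretch cannot tell that unit from UBBP4. The stretches of UBB units 1 and 3 do differ from that of UBBP4.

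UBB unit 1: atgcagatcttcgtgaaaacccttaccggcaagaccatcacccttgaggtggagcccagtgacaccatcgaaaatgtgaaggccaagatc
UBB unit 2: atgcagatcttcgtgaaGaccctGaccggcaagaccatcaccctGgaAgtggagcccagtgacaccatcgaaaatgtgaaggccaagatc
UBB unit 3: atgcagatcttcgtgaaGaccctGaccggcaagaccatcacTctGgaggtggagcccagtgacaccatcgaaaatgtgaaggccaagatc
RPS27A: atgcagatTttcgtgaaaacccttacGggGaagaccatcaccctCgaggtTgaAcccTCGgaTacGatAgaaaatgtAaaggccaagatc
UBBP4: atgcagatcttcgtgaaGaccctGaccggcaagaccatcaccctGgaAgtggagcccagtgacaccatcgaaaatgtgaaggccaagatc

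Over the 228 bases of a whole unit, units 2 and 3 of UBB differed from unit 1 by 8 and 12 bases. The unit of RPS27A differed from it by 38 bases (83.3% identical). The nearest sequence to UBB was that of UBBP4, a pseudogene of UBB at chr17:21730699-21731615 on the plus strand. Over the whole unit, UBBP4 differed from UBB unit 1 by 11 bases and 1 residue. Over an alignment of 689 bases, 663 were identical in UBB and UBBP4 (96.2%). Words of 50 bases from each canonical transcript were sought in annotated transcripts of other genes. Genes overlapping the locus and the rest of the genome were not searched. For UBB, 29.4% of the words occurred in the transcripts searched, and 65.4% occurred once in UBB and in none of them. For RPS27A, 49.2% occurred in transcripts of 9 other genes, with the pseudogene RPS27AP16 sharing most, and 50.8% in none of those searched. At 100 bases the words that occurred once in the gene and in no transcript searched made up 94.1% for UBB and 91.3% for RPS27A. The read length and the treatment of multiply aligned reads are not given in the sources used here. How far shared reads affect the level of either gene, or its difference between libraries, was not tested.

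The libraries held between 25291505 and 27391538 counts, and 17309 of 34811 genes passed the filter on low counts, UBB and RPS27A among them. PTGS1, which encodes COX-1 and is the target of the shRNA, was checked first. It had 713, 658 and 641 counts in OV3/SCR and 456, 486 and 501 counts in OV3/COX1KD. PTGS1 fell by 0.45 on the log2 scale (SE 0.06, FDR 1.34e-06, edgeR quasi-likelihood test), and its groups did not overlap. All 8 markers of serous ovarian epithelium passed the filter. Of these, 6 rose and 2, PAX8 and KRT7, fell (100% called at FDR under 0.01, against 47.9% of all genes). Summed leukocyte markers stood at 25 to 41 counts in OV3/SCR and 16 to 30 in OV3/COX1KD, summed endothelial markers at 64 to 86 and 72 to 95, with CDH5 at 3 counts or fewer in every library, and summed fibroblast markers at 291 to 300 and 174 to 187.

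UBB was low in the control clone and higher in the knockdown clone. The 3 control libraries held 24, 28 and 19 UBB counts, and the 3 knockdown libraries 211, 231 and 212. Scaled to a common depth by TMM factors (CPM), these were 0.900, 1.07 and 0.735 in OV3/SCR and 8.38, 9.22 and 7.96 in OV3/COX1KD. Every OV3/COX1KD library lay far above every OV3/SCR library, and the lowest OV3/SCR value was still above the 0.112 to 0.120 CPM that 3 counts are worth. The means were 0.903 ± 0.170 CPM in OV3/SCR and 8.52 ± 0.641 CPM in OV3/COX1KD (SD, n = 3), a ratio of 9.43 and a log2 fold change of 3.23 (SE 0.151). The spread between libraries was 18.8% of the mean in OV3/SCR and 7.53% in OV3/COX1KD.

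RPS27A was abundant in both clones, and its difference was small. It had 11558, 11100 and 11362 counts in OV3/SCR and 13071, 13357 and 14367 counts in OV3/COX1KD. After scaling these were 434, 426 and 440 CPM in OV3/SCR and 519, 533 and 539 CPM in OV3/COX1KD. The groups did not overlap, and the SD between libraries was 1.57% of the mean in OV3/SCR and 1.92% in OV3/COX1KD. The means were 433 ± 6.79 and 531 ± 10.2 CPM (SD, n = 3), which is 22.5% higher in OV3/COX1KD, with a log2 fold change of 0.29 (SE 0.028). With the libraries scaled by their total counts in place of TMM, the log2 fold change of RPS27A was 0.22.

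The difference of these genes has to be read against a table in which much changed. At FDR under 0.01, 47.9% of all tested genes were called, 25.8% higher and 22.1% lower in OV3/COX1KD, and 19.9% were called with a log2 fold change beyond 0.5. The 3 libraries of one clone did not overlap those of the other for 63.2% of tested genes. Groups that do not overlap, as in UBB and RPS27A, were thus the common case here. The median log2 fold change of all tested genes was -0.0087.

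**Figure D1:**
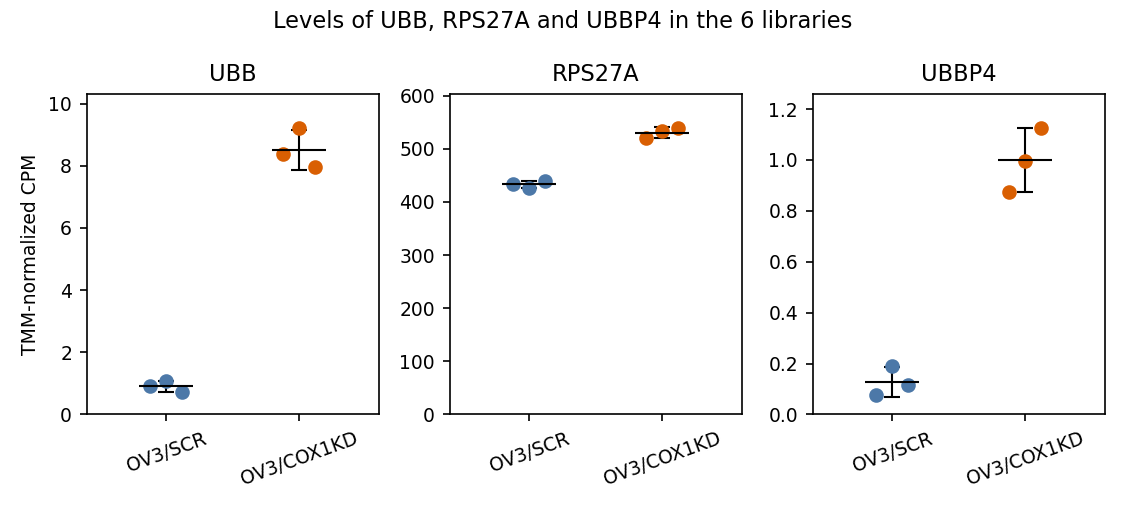
TMM-scaled CPM (vertical axes, each from 0 with its own scale) of UBB, RPS27A and the pseudogene UBBP4 in the 3 OV3/SCR and 3 OV3/COX1KD libraries; points are libraries, horizontal lines means and bars SD. UBB lies near 1 CPM in OV3/SCR and near 8.5 CPM in OV3/COX1KD, while RPS27A is separated by a small step. UBBP4 passed the filter on low counts only through the OV3/COX1KD libraries, so its panel only describes few reads.

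Reads of the pseudogenes that the count table lists under UBBP or RPS27AP symbols were few. UBBP4 had 2, 5 and 3 counts in OV3/SCR and 22, 25 and 30 counts in OV3/COX1KD. Its groups did not overlap, and 2 of its OV3/SCR libraries are at or under 3 counts. UBBP4 passed the filter on low counts only through the OV3/COX1KD libraries, so no fold change or test is given for it. UBB had 12, 5.60 and 6.33 counts per UBBP4 count in OV3/SCR and 9.59, 9.24 and 7.07 in OV3/COX1KD, so the ratio of UBB to its nearest copy overlapped between the clones. Whether reads of UBB were counted for UBBP4, or the reverse, was not tested. The other listed pseudogenes of these genes, UBBP1, UBBP2, RPS27AP1, RPS27AP2 and RPS27AP3, had between 1 and 13 counts over all 6 libraries and were outside the filter. RPS27AP16, which shared the most 50-base words with RPS27A, was not among the listed pseudogenes, so its reads were not examined. Exons of other genes cover 29.4% of the exon bases of UBB, all from an antisense lncRNA (ENSG00000265401) that is not analysed here, and 13.0% of those of RPS27A, where CLHC1 and an unnamed gene (ENSG00000289606) overlap. The strand setting of the counting is not given in the sources used here, so within the shared bases reads of UBB and of its antisense partner cannot be told apart.

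Levels of different genes were compared only after division by transcript length. Per kilobase of canonical transcript, UBB stood at 0.968 ± 0.182 CPM per kb in OV3/SCR and 9.13 ± 0.687 CPM per kb in OV3/COX1KD (SD, n = 3). RPS27A stood at 552 ± 8.66 and 676 ± 13.0 CPM per kb. RPS27A lay above UBB in all 6 libraries, by a factor of 570 in the means of OV3/SCR and 74.0 in those of OV3/COX1KD. These factors depend on the length used. Per kilobase of all annotated exon bases, mean UBB was 0.576 in OV3/SCR and 5.44 in OV3/COX1KD, and mean RPS27A was 147 and 180, so the factors were smaller. Among the 16520 tested genes with a transcript length, ordered from the highest level per kb, UBB took places 12421 to 13351 in OV3/SCR and 6025 to 6565 in OV3/COX1KD. RPS27A took places 81 to 84 in OV3/SCR and 75 to 79 in OV3/COX1KD.

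As RPS27A also encodes a ribosomal protein, it was set beside the other ribosomal protein genes. Of 31 other small-subunit genes tested, 28 rose, 2 fell and 1 was not called (96.8% called, against 47.9% of all genes), with a median log2 fold change of 0.36 against -0.0087 for all genes. RPS20 and RPS18 were among the genes that rose most, by 0.63 and 0.62 on the log2 scale (FDR 6.28e-13 and 2.92e-13, edgeR). RPS27, at -0.23 (FDR 4.20e-06), and RPS26, at -0.19 (FDR 7.62e-05), fell. The log2 fold change of RPS27A, 0.29, had 19 of these 31 genes above it and 12 below it, which places it inside the small-subunit group. Of 46 large-subunit genes tested, 45 rose and none fell, with a median of 0.48, led by RPL13A at 0.80, RPL7 at 0.71 and RPL15 at 0.70 (FDR 1.85e-14, 5.09e-14 and 5.19e-14). Many ribosomal protein genes have processed pseudogenes like those of RPS27A, and how their reads were divided was not tested.

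**Figure D2:**
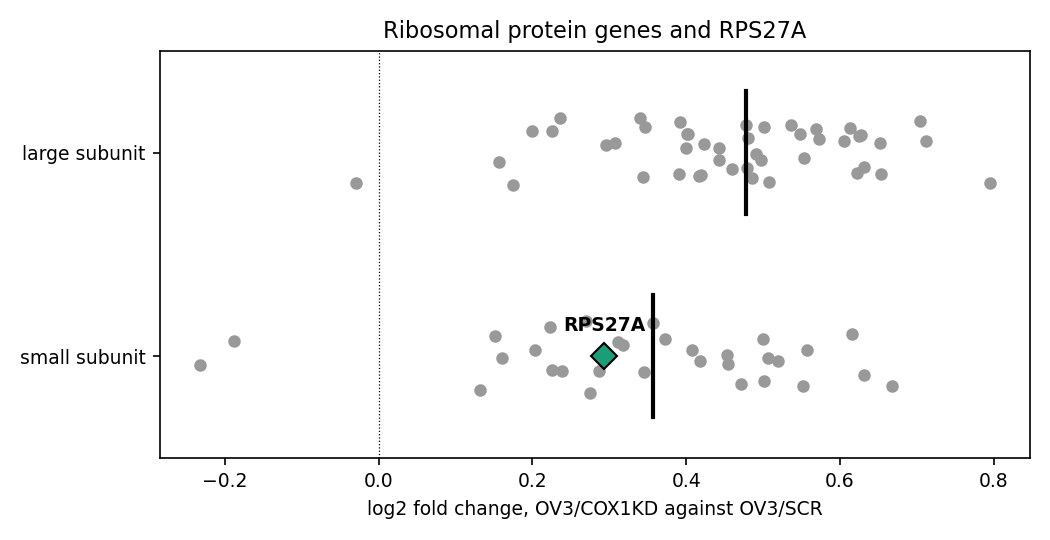
Log2 fold change of OV3/COX1KD against OV3/SCR (horizontal axis) for the 31 small-subunit and 46 large-subunit ribosomal protein genes (grey points, jittered vertically; black lines are medians), with RPS27A as a diamond. RPS27A at 0.29 lies within the small-subunit genes, whose median is 0.36, and the large-subunit genes have a median of 0.48.

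The enzymes that act on the products of UBB and RPS27A were described next. A first group cuts ubiquitin from its precursors or returns it from chains. None of 10 measured genes rose and 5 fell, with a median log2 fold change of -0.13 and 50% called against 47.9% of all genes. FAM105B (OTULIN), which cleaves linear chains, fell by 0.31 (FDR 3.97e-04), PSMD14, the deubiquitinase of the proteasome lid, by 0.21 (FDR 1.21e-05), OTUB1 by 0.19 (FDR 5.88e-05) and UCHL1 by 0.18 (FDR 1.40e-05). USP14, a proteasome-bound deubiquitinase, fell by 0.10 (FDR 0.00885, edgeR), a call that held in 7 of 14 alternative analyses, with an FDR of 0.0111 when the replicate number was a block. USP5, which takes apart free chains, had -0.10 (FDR 0.0193), UCHL3 -0.17 (FDR 0.151), USP9X 0.11 (FDR 0.0452), USP7 0.05 (FDR 0.262) and UCHL5 0.01 (FDR 0.790), none of them called. Without OV3/COX1KD replicate 2 the number called was 8, of which 6 fell and 2 rose. The highest log2 fold change of the list was the 0.11 of USP9X.

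Conjugation starts with the E1 enzymes, which activate ubiquitin. UBA1, the main E1, rose by 0.09 (FDR 0.00975) and UBA6 fell by 0.14 (FDR 0.00285, edgeR). The call of UBA1 held in 4 of 14 alternative analyses, with an FDR of 0.0126 under the replicate block and 0.723 under total count scaling, and that of UBA6 in 10 of 14. Among 29 E2 enzymes, which carry the activated ubiquitin, 8 rose, 7 fell and 14 were not called (51.7% called, near the 47.9% of all genes), with a median of 0.03. UBE2W, which modifies N termini, rose by 0.53 (FDR 2.01e-09), UBE2D2 by 0.41 (FDR 1.30e-09) and UBE2E2 by 0.36 (FDR 9.67e-07). UBE2T, the E2 of the Fanconi anaemia pathway, fell by 0.26 (FDR 1.21e-04), UBE2B by 0.24 (FDR 2.01e-04) and CDC34 by 0.18 (FDR 0.00250). The call of CDC34 held in 10 of 14 alternative analyses, with a highest FDR of 0.0160.

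Genes that read or use ubiquitin were taken next. Of 13 receptors and shuttles, 3 rose and 4 fell (53.8% called, near the 47.9% of all genes), with a median of -0.04. The autophagy receptor NBR1 rose by 0.46 (FDR 3.14e-08) and the shuttle DDI2 by 0.25 (FDR 1.40e-05). RAD23B rose by 0.10 (FDR 0.00784), a call that held in 2 of 14 alternative analyses, with an FDR of 0.0106 under the replicate block and 0.604 under total count scaling. ADRM1, a ubiquitin receptor of the proteasome, fell by 0.50 (FDR 9.20e-12), UFD1L by 0.38 (FDR 4.77e-08) and NPLOC4 by 0.29 (FDR 2.06e-06, edgeR). The last pair are partners of the segregase p97. Of 32 proteasome subunits, 21 fell, 1 rose and 10 were not called (68.8% called, against 47.9% of all genes). Their median was -0.16. The falls were led by ADRM1 and the ATPase subunits PSMC4 at -0.36 (FDR 6.01e-10) and PSMC2 at -0.36 (FDR 1.34e-08). PSMD8 rose by 0.10 (FDR 0.00525), a call that held in 4 of 14 alternative analyses, with an FDR of 0.607 under total count scaling. UBB and RPS27A were selected on their difference between the clones, so their positive log2 fold changes are not read as a contrast to this list.

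Of 15 ubiquitin-like modifiers tested, 5 rose and 3 fell (53.3% called, near the 47.9% of all genes), with a median of -0.02. SUMO3 rose by 0.47 (FDR 1.06e-10), SUMO2 by 0.39 (FDR 2.43e-08) and GABARAP by 0.38 (FDR 0.00770). The libraries of GABARAP overlapped between the clones, its call held in 8 of 14 alternative analyses, and its log2 fold change was 0.27 without OV3/SCR replicate 1 and 0.53 without OV3/SCR replicate 2. ISG15, an interferon-induced modifier, fell by 0.79 (FDR 7.45e-06), URM1 by 0.23 (FDR 1.10e-05) and GABARAPL2 by 0.20 (FDR 3.23e-04). UBD was not analysed here.

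UBB is known as a heat shock gene, so other genes of that response were compared. Of 13 tested, 2 rose, 7 fell and 4 were not called (69.2% called, against 47.9% of all genes). The median log2 fold change was -0.15. HSP90AB1, the constitutive form of HSP90, rose by 0.42 (FDR 1.18e-10), and HSF1, the factor that drives the response, rose by 0.16 (FDR 2.95e-04), though under total count scaling it had 0.08 with an FDR of 0.0440 and was not called. HSPH1 fell by 0.62 (FDR 1.41e-12), the inducible HSP90AA1 by 0.37 (FDR 7.06e-10) and the co-chaperone BAG3 by 0.31 (FDR 1.81e-07). HSPA1A was outside the filter. The highest log2 fold change of the list, 0.42, was below the 3.23 of UBB. As UBB was selected on its difference between the clones, this gap only describes the values.

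**Figure D3:**
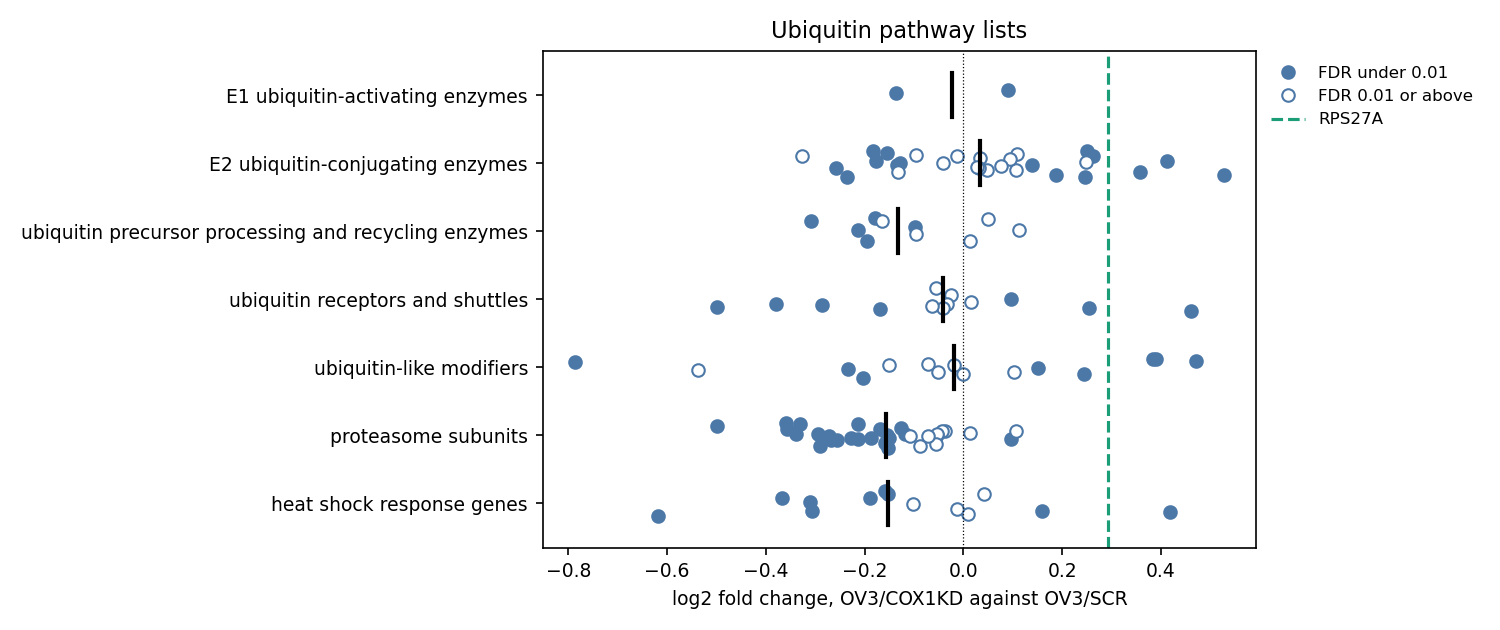
Log2 fold change of OV3/COX1KD against OV3/SCR for the genes of 7 lists (points, jittered vertically; filled at FDR under 0.01, open otherwise; black lines are medians), with a dashed line at RPS27A; UBB, at 3.23, is beyond the axis. Proteasome subunits lie mostly below 0 with a median of -0.16, and the E2 enzymes spread on both sides of 0.

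Ubiquitin genes often serve as reference genes for expression measurements, as do several ribosomal protein genes. Of 14 such genes, 6 rose, 2 fell and 6 were not called (57.1% called, against 47.9% of all genes). Their median was 0.07. RPL13A, at 0.80, and RPLP0, at 0.55 (FDR 1.32e-12), led the rises, followed by YWHAZ at 0.44 (FDR 5.71e-11). ACTB fell by 0.14 (FDR 1.20e-04) and PGK1 by 0.15 (FDR 1.54e-04).

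Genes around the 2 loci were described as well. Of 27 tested genes starting within 1000000 bases of the start of UBB, 8 rose, 10 fell and 9 were not called. That is 66.7% called, against 47.9% of all genes. Their median log2 fold change was -0.19, with a range from -1.21 to 0.77. By gene start, the nearest tested genes were CENPV, 38264 bases before the start of UBB, and C17orf76-AS1, 57969 bases after it. CENPV fell by 0.54 (FDR 3.60e-05, edgeR) and C17orf76-AS1 rose by 0.62 (FDR 4.43e-13). The highest value of this window was below the 3.23 of UBB. UBB was selected on its difference between the clones, so this gap is a description only. Of 15 tested genes around RPS27A, 3 rose, 3 fell and 9 were not called (40.0% called, against 47.9% of all genes). Their median was -0.04, with a range from -0.79 to 0.90. By gene start, the nearest were AC012358.4 and the mitochondrial initiation factor gene MTIF2. AC012358.4 starts 7623 bases before the start of RPS27A and had -0.63 (FDR 0.0252, edgeR, not called). MTIF2 starts 4692 bases after the start of RPS27A and rose by 0.12 (FDR 0.00629). The call of MTIF2 held in 5 of 14 alternative analyses (0.04 with an FDR of 0.322 under total count scaling). C2orf63, the table's name for CLHC1, starts further away, but its exons overlap those of RPS27A. By the gap between gene bodies it is thus nearer than AC012358.4 and MTIF2. C2orf63 fell by 0.55 (FDR 2.13e-05).

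**Figure D4:**
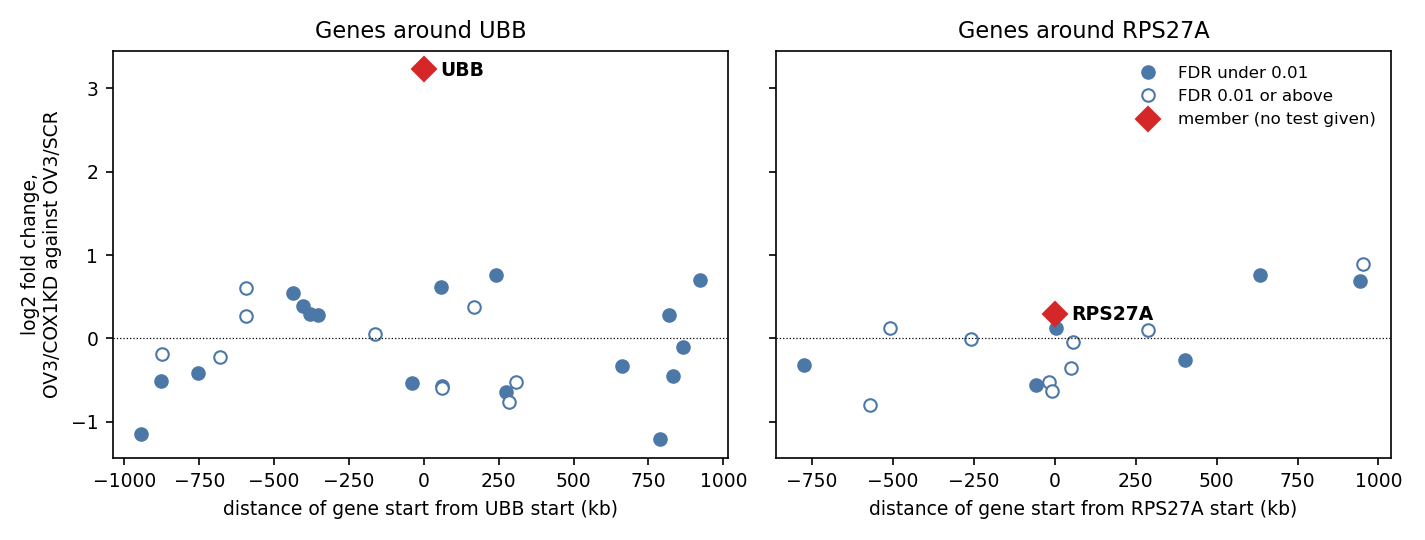
Log2 fold change of OV3/COX1KD against OV3/SCR (vertical axis) for tested genes within 1000000 bases of UBB (left) and RPS27A (right), against the distance of the gene start from that of the member in kb; filled points are at FDR under 0.01, and the diamond is the member, for which no test is given. The 27 genes around UBB lie between -1.21 and 0.77, all below the diamond at 3.23, a difference on which UBB was selected.

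The genes whose levels followed the members most closely were found among tested genes whose log2 CPM averaged 5 or more, by the root mean square difference of their log2 CPM over the 6 libraries after centring each gene on its mean. For UBB these were CYP4B1 (0.243), LRP2 (0.409), CCDC80 (0.485), MAPT (0.515) and COL6A2 (0.540), with log2 fold changes from 2.22 to 2.91. These fold changes were below the 3.23 of UBB, and the limit of 5 left out genes at the low level of UBB itself. For RPS27A they were EEF1B2 (0.0093), URI1 (0.0101), SEPHS2 (0.0115), MKKS (0.0129) and TTC19 (0.0134), with log2 fold changes from 0.28 to 0.31. All 6 libraries come from 2 clones, so this likeness rests on the step between the clones and on the scatter within each. UBB and RPS27A were selected on that step, so the likeness is a description only.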

How the data were processed

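RNA-seq libraries were made with the TruSeq RNA kit. The deposited values are raw counts per gene, which the authors made with TopHat2 (2.0 in the submitters' processing notes) on hg19 and HTSeq; the annotation, strand setting and read length are not given in the sources used here. Groups and replicate numbers came from the labels. The test used edgeR 4.0.16 under R 4.3.3 (TMM, filterByExpr, glmQLFit and glmQLFTest, condition as the only factor, Benjamini-Hochberg adjustment over 17309 of 34811 genes, threshold FDR 0.01). The common dispersion gave a biological coefficient of variation of 3.21%. A log2 fold change divided by the root of its F statistic gave its SE. CPM were TMM-scaled; floors of 3 counts cover counting error only. Genes, lengths, overlaps, neighbours and sequences were taken from GENCODE 44 on GRCh37, which held 33556 of the 34811 genes. A unit was counted as ubiquitin with at most 3 differing residues.

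UBB, RPS27A and the gene lists were chosen with earlier results of these data known. Named are UBB, RPS27A, pseudogenes above 18 counts in all, and the E1 and processing enzymes. Also named are up to 3 highest and 3 lowest called genes per list whose log2 CPM averaged 1 or more. The nearest tested genes on each side by gene start and the 5 genes most alike complete the rule. C2orf63 was added after its values were seen. The labels speak of replicate pairs without saying that a number marks a pair; deviations of same-numbered libraries correlated at 0.024 on average, none above 0.1, so the numbers were not taken as a pairing. Alternatives were RLE and total count scaling, other filters, DESeq2 1.42.0, a replicate block and leaving out each library, and, added after seeing the data, GC and length offsets. Some genes that this rule names are not reported here. The fit was tested on simulated data. No column of the table was left out.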

Additional observations from a re-analysis of the deposited data

How the results depend on the processing

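The direction of UBB and RPS27A held in all 14 alternatives: the log2 fold change of UBB lay between 3.11 and 3.37 and that of RPS27A between 0.22 and 0.32. RPS27A moved by more than the spread between replicates to 0.22 under total count scaling, 0.22 with GC and length offsets and 0.22 with those offsets and the replicate block. The replicate block alone gave 3.23 for UBB, 0.29 for RPS27A and 8233 genes called at FDR under 0.01 in place of 8293. Leaving out 1 library gave 7124 to 8989. The 8989 came without OV3/COX1KD replicate 2, and every other omission gave 7401 or fewer. Between the counts of OV3/COX1KD libraries, the chi-square per degree of freedom was 4.83 and 6.31 for pairs with replicate 2. It was 1.89 for the pair without it. Of the 2 E1 enzymes, 1 was called under RLE size factors, 1 under total count scaling, 1 with no filter, 1 with at least 10 counts in every library, 1 by DESeq2, 1 with the replicate block and 0 to 2 with a library left out. Processing and recycling enzymes called ranged from 4 to 8 with a library left out, against 5. USP7, uncalled, reversed to -0.029 under total count scaling. UCHL5, uncalled, reversed to -0.066 under total count scaling, -0.0048 with at least 10 counts in every library, -0.037 with GC and length offsets and -0.037 with these and the replicate block, and ranged from -0.0085 to 0.031 with a library left out. The cause of these shifts was not tested. UBB rests on 19 to 28 counts in each OV3/SCR library, which limits the precision of its ratio.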
